A study of Mus musculus with 12 samples.

Results

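The cell-cycle programme of the mouse kidney was described here through 40 proliferation and mitosis genes, taken by symbol from a fixed list that runs from the G1 cyclins to the mitotic kinesins. All 40 were found among the 55401 gene identifiers of the RSEM gene tables. The groups were 6 male C57BL6 mice given vehicle and 6 male C57BL6 mice given SK-124, a small-molecule inhibitor of the salt-inducible kinases SIK2 and SIK3, by intraperitoneal injection at 40 mg/kg and at 8 weeks of age. The vehicle was recorded at 15% for the vehicle group. The study's methods name hydroxy-propyl β cyclodextrin at that strength as the vehicle of SK-124, for another experiment. Neither group carried a genetic change. Each library was the whole kidney of 1 mouse, so a level is an average over tubule, vessel, stromal and immune cells, and fewer cells of a type cannot be told apart from less RNA per cell. The time between injection and kidney collection was not named for these libraries.

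Cell division runs in a fixed order. The D-type and E-type cyclins with their kinases bring a cell out of G1, the MCM helicase is loaded on DNA with the help of Cdc6 and Cdt1, and PCNA, ribonucleotide reductase, thymidylate synthase and thymidine kinase serve the copying of the genome. Cyclins A and B with Cdk1 then start mitosis, where the Aurora and Polo kinases, the chromosomal passengers, the spindle checkpoint and the mitotic kinesins separate the chromosomes, and the anaphase-promoting complex ends it. In the adult kidney most cells are at rest, and the cell-cycle inhibitors of the Cdkn families, the pocket proteins and the DREAM repressor complex hold these genes low.

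Promoter windows from RefSeq (GRCm38.p6, 250 bases before to 50 after the start site, 300 in all) were at hand for 32 of the 40 genes, as 34 windows. Not in that table were *Ccnd1*, *Ccnd2*, *Ccne2*, *Mcm4*, *Ccna2*, *Aurkb*, *Foxm1* and *Kif20a*. Each window was searched on both strands for CCAAT (the CCAAT box), TTTGAA (the cell-cycle homology region, CHR), TTTCCCGC or TTTGGCGC (2 forms of an E2F box) and TGACG (the short form of a cAMP response element, CRE, whose full form TGACGTCA holds it on both strands). The 6 windows printed here are those of 3 members that rose, *Kif23*, *Pcna* and *Aurka*, of 2 that fell, *Cdt1* and *Mcm6*, and of *Mki67*, the usual proliferation marker. They run 5′ to 3′ along the gene's strand, and capitals mark the letters found.
Kif23, chr9:61946750-61947049, minus strand: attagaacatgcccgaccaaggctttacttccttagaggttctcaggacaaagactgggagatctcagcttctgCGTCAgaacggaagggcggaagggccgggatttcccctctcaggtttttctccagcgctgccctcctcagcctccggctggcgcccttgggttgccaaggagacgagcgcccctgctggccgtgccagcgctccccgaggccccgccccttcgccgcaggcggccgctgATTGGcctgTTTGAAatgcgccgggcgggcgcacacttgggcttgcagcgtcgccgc
Mki67, chr7:135716330-135716629, minus strand: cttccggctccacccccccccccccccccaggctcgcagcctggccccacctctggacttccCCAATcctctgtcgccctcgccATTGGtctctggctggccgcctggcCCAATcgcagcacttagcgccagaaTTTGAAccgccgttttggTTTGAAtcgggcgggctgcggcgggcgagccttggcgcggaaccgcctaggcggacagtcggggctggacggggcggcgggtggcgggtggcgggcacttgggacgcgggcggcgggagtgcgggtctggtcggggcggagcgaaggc
Aurka, chr2:172370521-172370820, minus strand: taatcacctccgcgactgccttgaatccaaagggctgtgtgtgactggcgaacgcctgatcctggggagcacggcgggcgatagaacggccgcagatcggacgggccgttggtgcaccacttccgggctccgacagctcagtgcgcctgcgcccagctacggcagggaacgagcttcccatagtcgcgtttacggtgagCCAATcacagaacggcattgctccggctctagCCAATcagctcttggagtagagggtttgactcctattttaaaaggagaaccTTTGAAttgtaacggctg
Mcm6, chr1:128359656-128359955, minus strand: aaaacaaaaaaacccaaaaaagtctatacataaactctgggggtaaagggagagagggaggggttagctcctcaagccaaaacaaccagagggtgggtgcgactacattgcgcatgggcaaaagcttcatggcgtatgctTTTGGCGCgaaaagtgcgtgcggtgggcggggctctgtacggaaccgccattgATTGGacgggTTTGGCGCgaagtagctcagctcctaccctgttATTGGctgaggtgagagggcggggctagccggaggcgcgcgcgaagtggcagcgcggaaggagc
Cdt1, chr8:122567765-122568064, plus strand: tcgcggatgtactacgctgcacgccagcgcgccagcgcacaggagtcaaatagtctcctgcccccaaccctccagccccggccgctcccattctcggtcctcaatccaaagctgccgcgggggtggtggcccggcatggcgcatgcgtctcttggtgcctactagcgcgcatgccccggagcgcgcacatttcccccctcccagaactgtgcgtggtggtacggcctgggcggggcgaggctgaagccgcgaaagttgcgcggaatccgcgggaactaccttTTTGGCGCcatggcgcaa
Pcna, chr2:132253131-132253430, minus strand: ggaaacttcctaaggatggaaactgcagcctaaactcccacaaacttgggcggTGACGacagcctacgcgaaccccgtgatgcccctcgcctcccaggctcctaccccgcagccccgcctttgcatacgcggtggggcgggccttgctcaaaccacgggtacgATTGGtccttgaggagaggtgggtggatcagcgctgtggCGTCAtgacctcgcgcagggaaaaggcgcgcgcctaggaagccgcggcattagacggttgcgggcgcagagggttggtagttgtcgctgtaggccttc

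The windows of *Kif23*, *Mki67* and *Aurka* hold both a CCAAT box and a CHR, those of *Mcm6* and *Cdt1* an E2F box, and that of *Pcna* a CCAAT box and 2 short CREs. The G2 and mitosis genes shared the first pair of letters: 14 of their 15 windows held CCAAT, against 37.4% of all 32851 windows, 12 held the CHR, against 17.9%, and the same 12 held both, against 6.95%. An E2F box stood in none of the 15 windows but in 6 of the 13 windows of the replication and DNA synthesis genes, against 1.56% of all windows. A short CRE stood in the *Kif23* window and in those of *Ccnb2*, *Bub1b* and *Kif11*, 4 of 15, against 20.8% of all windows. It stood in 5 of the 13 windows of the replication and DNA synthesis genes and in 13 of all 34 member windows (38.2%). The full CRE was found in 1 member window, that of *Mcm5*, against 1.79% of all. *Kif23*, which rose, and *Mki67*, which did not pass the test, both held a CCAAT box and a CHR, and of these 2 only *Kif23* held a short CRE. The window of *Aurka*, also called higher, held no short CRE. *Ccnb2*, *Bub1b* and *Kif11*, whose windows held it, were not called. A link between these letters and the RNA levels was not tested.

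The vehicle libraries held 19350134 to 19771802 expected counts and the SK-124 libraries 19244227 to 19530313. Levels are given as CPM, counts scaled to library size by TMM, and as TPM, which also accounts for transcript length and alone serves to compare genes. On the CPM scale 1 count was worth about 0.0512. The 10 genes with the most counts took 39.9% to 43.2% of the counts of vehicle-treated mice, 44.4% to 46.8% of those of SK-124–treated mice 1 to 3 and 38.6% to 40.2% of those of SK-124–treated mice 4 to 6, so both values are given for each listed cell-cycle gene whose call changed with only these 3 or only the other 3 mice. No label marks this split, which was seen in these same libraries. Each such fit holds 3 SK-124–treated mice in place of 6, so a call can be lost at a similar fold change.

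Most of these genes were low in the whole kidney. Mean TPM in vehicle-treated mice was under 1 for 21 of the 40, between 1 and 10 for 16, and 10 or more for 3, with a median of 0.946 against 5.11 over all genes tested. The highest were *Ccnd3* (cyclin D3), at 47.8 ± 1.61 TPM (SD, n = 6), *Ccnd1* (cyclin D1), at 29.6 ± 5.59 TPM, and *Pcna*, the sliding clamp of DNA polymerase, at 11.8 ± 0.788 TPM. The helicase subunit *Mcm7* followed at 6.18 ± 0.661 TPM and thymidylate synthase *Tyms* at 6.03 ± 0.549 TPM, and these 2 did not differ beyond their spread. At the other end stood the mitosis genes. *Mki67*, whose protein coats mitotic chromosomes, had 0.605 ± 0.113 TPM, *Top2a*, the topoisomerase that untangles them, 0.693 ± 0.172 TPM, and *Bub1*, a spindle checkpoint kinase, 0.158 ± 0.0431 TPM. The lowest was *Cdc6*, which loads the MCM helicase, at 0.108 ± 0.0794 TPM. Few reads stood behind many of these values: 22 of the 40 genes had fewer than 30 counts in at least 1 mouse, and the median coefficient of variation between vehicle-treated mice was 17.1% for the members tested against 10.99% for all genes tested.

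**Figure D1:**
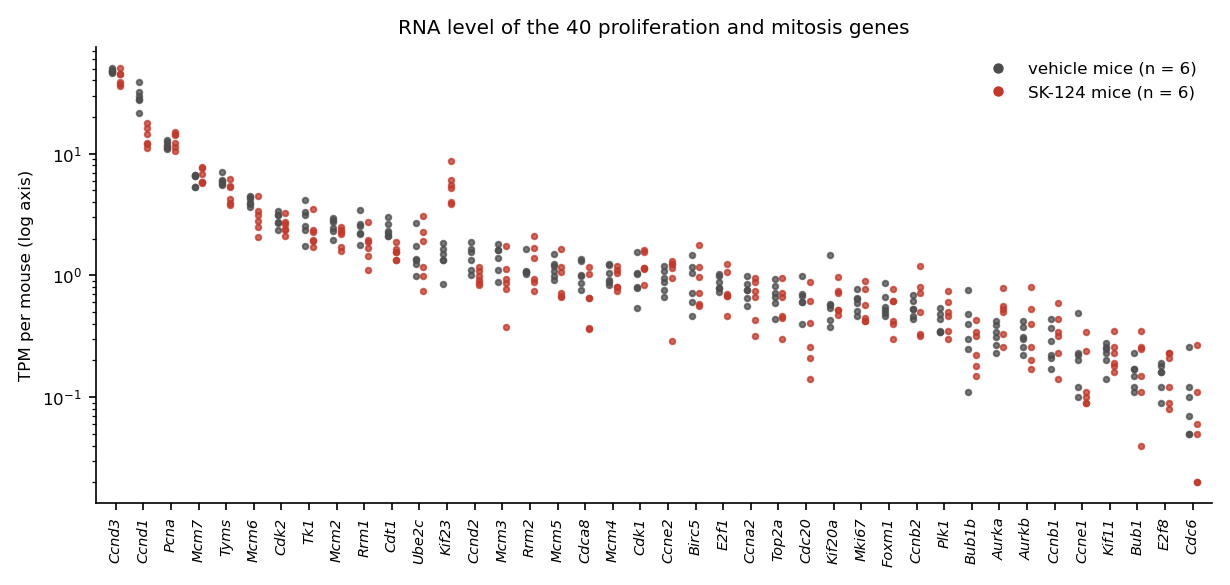
TPM of each of the 40 genes in each mouse (log axis), ordered by the vehicle mean, with vehicle-treated mice in grey and SK-124–treated mice in red (n = 6 each). Most genes lie near or under 1 TPM with the groups intermixed, while *Kif23* lies at 0.85 to 1.86 TPM in vehicle-treated and 3.87 to 8.74 TPM in SK-124–treated mice.

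The comparison asked which of these genes differed between SK-124–treated and vehicle-treated kidneys. Single genes differed in both directions, and most members gave no call. edgeR's filter on low counts passed 36 of the 40. With FDR the Benjamini-Hochberg adjusted p of edgeR's quasi-likelihood test over all 14159 genes tested, 3 members were higher (*Kif23*, *Pcna*, *Aurka*) and 3 were lower (*Ccnd1*, *Cdt1*, *Mcm6*) at an FDR under 0.05. That is 6 of 36, or 16.7%, where 24.4% of all genes tested were called, 10.8% as higher and 13.5% as lower. These shares were not matched for expression level. The median log2 fold change of the 36 was 0.02, with 20 above and 16 below 0, and that of all genes tested was -0.005. The member median was -0.09 with SK-124–treated mice 1 to 3 alone and 0.15 with mice 4 to 6 alone. For 3 members, *Kif23*, *Pcna* and *Ccnd1*, the 6 mice of one group lay entirely on one side of the other 6, against 13.0% of all genes tested. For *Kif23* and *Pcna* the SK-124 group was above, as in 6.32% of all genes tested, and for *Ccnd1* the vehicle group, as in 6.65%.

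**Figure D2:**
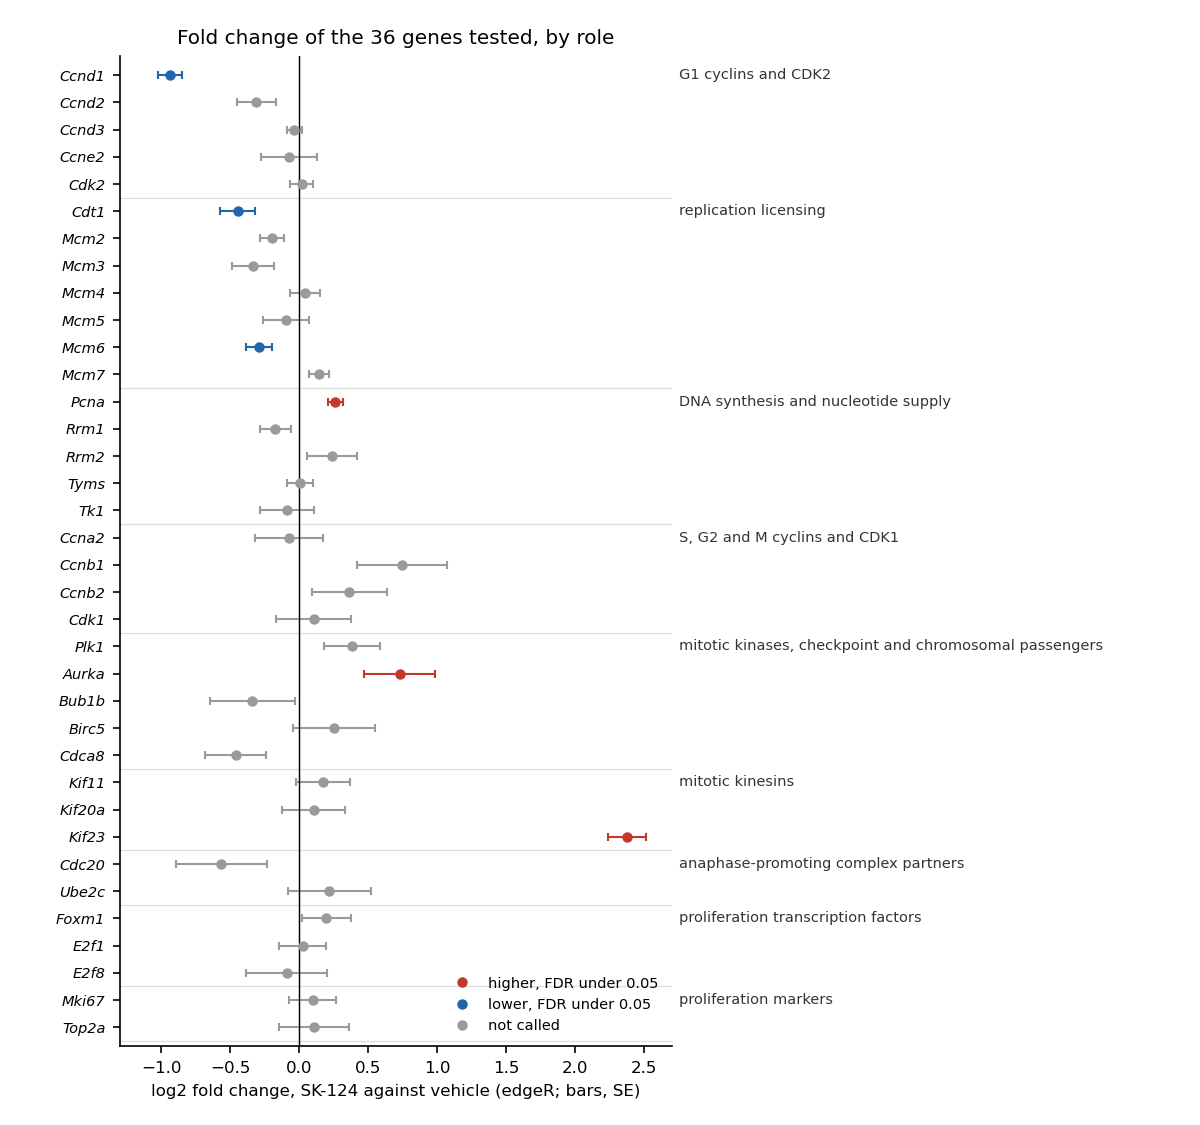
Log2 fold change of SK-124–treated against vehicle-treated mice, with its SE, for the 36 genes tested, grouped by role. *Kif23* stands at 2.37 and *Ccnd1* at -0.94, and the other members lie between -0.57 and 0.75.

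The largest change was in *Kif23*, the kinesin motor of the centralspindlin complex, which bundles the microtubules between the separating chromosomes and is needed for the last step of cell division. *Kif23* (ENSMUSG00000032254.10) lies on chromosome 9, from 61915905 to 61946774 on the minus strand, in the GENCODE M21 annotation of GRCm38. In vehicle-treated mice 1 to 6 it had 1.97, 1.93, 2.20, 2.67, 2.47 and 2.23 CPM, and in SK-124–treated mice 1 to 6 it had 11.18, 8.59, 12.89, 11.04, 10.77 and 15.41 CPM. Every SK-124–treated mouse was above every vehicle-treated mouse, with mouse 6 the highest and mouse 2 the lowest of its group. The fold change was 5.18 (log2 2.37, SE 0.13, FDR 9.88e-10, 95% interval of the log2 value 2.07 to 2.67), and 38 of the genes tested rose further. Leaving out each mouse in turn gave log2 values of 2.28 to 2.45, and all alternatives that were run kept the call, with a lowest value of 1.41 on the log2(TPM + 1) scale.

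The genes beside *Kif23* and the other mitotic kinesins had smaller values. *Rplp1*, a ribosomal protein gene beside it on the same strand, had a log2 fold change of 0.06 (SE 0.10, FDR 0.694), and *Paqr5*, a membrane progestin receptor gene on the other side, rose by 0.27 (SE 0.05, FDR 0.00136). No annotated gene overlaps *Kif23*. The mean transcript length that RSEM assigned to it, weighted by the abundance of its isoforms, was 1392 to 2290 bases in vehicle-treated and 1593 to 2685 bases in SK-124–treated mice, with the groups overlapping. Of its 12 annotated transcripts 2 are protein-coding and 7 retain an intron, and the longest has 3398 bases, so the assigned lengths include shorter forms in both groups. *Kif11*, which pushes the spindle poles apart, had 1.13 ± 0.237 CPM (SD, n = 6) with vehicle and 1.27 ± 0.298 CPM with SK-124 (log2 fold change 0.17, SE 0.19, FDR 0.575). *Kif20a*, which works beside *Kif23* in cytokinesis, had 1.96 ± 0.683 and 2.09 ± 0.699 CPM (log2 fold change 0.10, SE 0.23, FDR 0.791). Neither of these 2 kinesins passed the test.

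Of the other 17 G2 and mitosis members, 15 passed the filter, and *Aurka* alone was called. *Aurka*, the Aurora kinase of the centrosomes and spindle poles, had 0.545, 0.496, 0.766, 0.807, 0.569 and 0.379 CPM in vehicle-treated mice 1 to 6 and 1.16, 0.760, 1.06, 0.495, 1.40 and 1.01 CPM in SK-124–treated mice 1 to 6. Mice 2 and 4 of the SK-124 group lay within the vehicle range and the other 4 above it. The log2 fold change was 0.73 (SE 0.26, FDR 0.0474). This call rested on 8 to 28 counts per mouse and was lost under 16 of the 23 alternatives that gave it a value: the FDR was 0.0523 with DESeq2, 0.0739 without the filter on low counts, 0.0876 and 0.167 with SK-124–treated mice 1 to 3 and 4 to 6 alone (log2 fold changes 0.75 and 0.71), and 0.0798 to 0.122 without any one of vehicle-treated mice 1, 2, 5 or 6 or SK-124–treated mice 1, 3, 5 or 6.

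The mitotic cyclins and Cdk1 gave no call. *Ccnb1* (cyclin B1) had 0.297 to 0.663 CPM with a median of 0.456 in vehicle-treated mice and 0.347 to 1.47 CPM with a median of 0.743 in SK-124–treated mice (log2 fold change 0.75, SE 0.33, FDR 0.111). The groups overlapped, mouse 6 of the SK-124 group was the highest, and without SK-124–treated mouse 1 the FDR was 0.0472 at a log2 fold change of 0.89. *Cdk1*, the kinase that cyclin B activates, had 0.543 to 1.43 CPM (median 0.806) with vehicle and 0.463 to 1.32 CPM (median 0.910) with SK-124, a log2 fold change of 0.10 (SE 0.27, FDR 0.825). *Ccnb2* and *Ccna2*, cyclins B2 and A2, had log2 fold changes of 0.36 (SE 0.27, FDR 0.374) and -0.07 (SE 0.25, FDR 0.865). None of the 4 genes passed, and at these counts the 95% interval for *Cdk1* ran from -0.50 to 0.70.

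The remaining mitosis genes were uncalled with values on both sides. *Plk1*, the Polo kinase, had a log2 fold change of 0.38 (SE 0.20, FDR 0.200), and *Birc5*, the survivin subunit of the chromosomal passenger complex, 0.25 (SE 0.30, FDR 0.588). *Cdca8*, another passenger subunit, had -0.46 (SE 0.22, FDR 0.151), and passed the test only without SK-124–treated mouse 3, at -0.64 and an FDR of 0.0442. The anaphase-promoting complex partners *Cdc20*, its activator, and *Ube2c*, its ubiquitin-conjugating enzyme, stood at -0.57 (SE 0.33, FDR 0.241) and 0.22 (SE 0.30, FDR 0.657). The checkpoint kinase gene *Bub1b* had -0.34 (SE 0.31, FDR 0.469). *Aurkb*, the Aurora kinase of the passenger complex, and *Bub1* had too few counts for the filter, 5 to 14 and 3 to 14 per mouse, and without the filter gave log2 fold changes of 0.24 (FDR 0.655) and 0.60 (FDR 0.397).

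The 2 proliferation markers differed less between the groups than between mice of one group. *Mki67* (ENSMUSG00000031004.8, chromosome 7, 135689784 to 135716361) had 6.27, 5.01, 9.09, 5.80, 6.40 and 6.40 CPM in vehicle-treated mice 1 to 6 and 5.502, 7.77, 5.71, 4.70, 8.22 and 9.63 CPM in SK-124–treated mice 1 to 6. The highest vehicle-treated mouse, number 3, lay above 5 of the 6 SK-124–treated mice. The difference was 0.10 on the log2 scale (SE 0.17, FDR 0.731), with a 95% interval of -0.28 to 0.47. *Top2a* had 1.36 to 3.41 CPM (median 2.35) with vehicle and 1.45 to 3.95 CPM (median 2.23) with SK-124, a log2 fold change of 0.11 (SE 0.25, FDR 0.804). Among the transcription factors of proliferation, *Foxm1*, which drives G2 and mitosis genes, had a log2 fold change of 0.19 (SE 0.18, FDR 0.474), the activator *E2f1* 0.02 (SE 0.17, FDR 0.938) and the repressor *E2f8* -0.09 (SE 0.29, FDR 0.859). These 5 genes gave no call under any alternative.

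**Figure D3:**
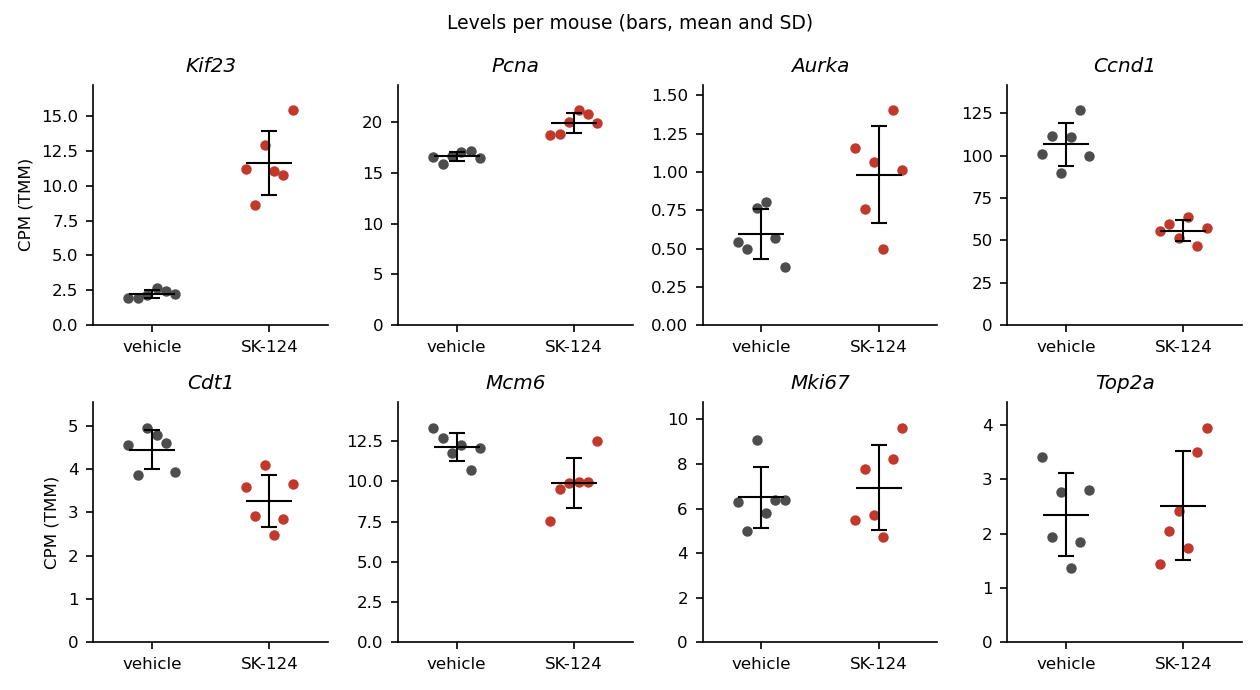
CPM of the 6 called members and of *Mki67* and *Top2a* in each mouse, with the mean and SD of each group of 6 (axes start at 0). The groups are apart for *Kif23*, *Pcna* and *Ccnd1* and overlap for the others.

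Within each group many mitosis genes were high or low in the same mice. Their summed level, over the 17 members without *Kif23*, was 19.9 to 32.9 CPM in vehicle-treated mice, with mouse 3 the highest and the other 5 between 19.9 and 23.4 CPM. In SK-124–treated mice it was 18.0, 23.0, 25.8, 17.2, 33.0 and 35.7 CPM, so the spread was wider (SD 7.64 against 4.68) at similar means (25.4 against 23.8 CPM). Vehicle-treated mouse 3 had the highest value of its group for 11 of the 17 genes, and SK-124–treated mice 6 and 5 did so for 10 and 6, whereas SK-124–treated mice 1 and 4 were lowest for 8 and 7. The sum separated single mice and not the groups. Vehicle-treated mouse 3 also stood apart from its group over all genes tested, by the chi-square per degree of freedom between 2 libraries. Its pairs with other vehicle-treated mice gave 20.8 to 26.8, and the remaining vehicle pairs 4.69 to 9.13. Pairs of SK-124–treated mice gave 5.89 to 32.1. The per-mouse median over the 36 genes tested, as the difference from the vehicle mean on the log2(CPM + 0.5) scale, went from -0.22 in SK-124–treated mouse 4 to 0.30 in mouse 6 (SD 0.21).

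**Figure D4:**
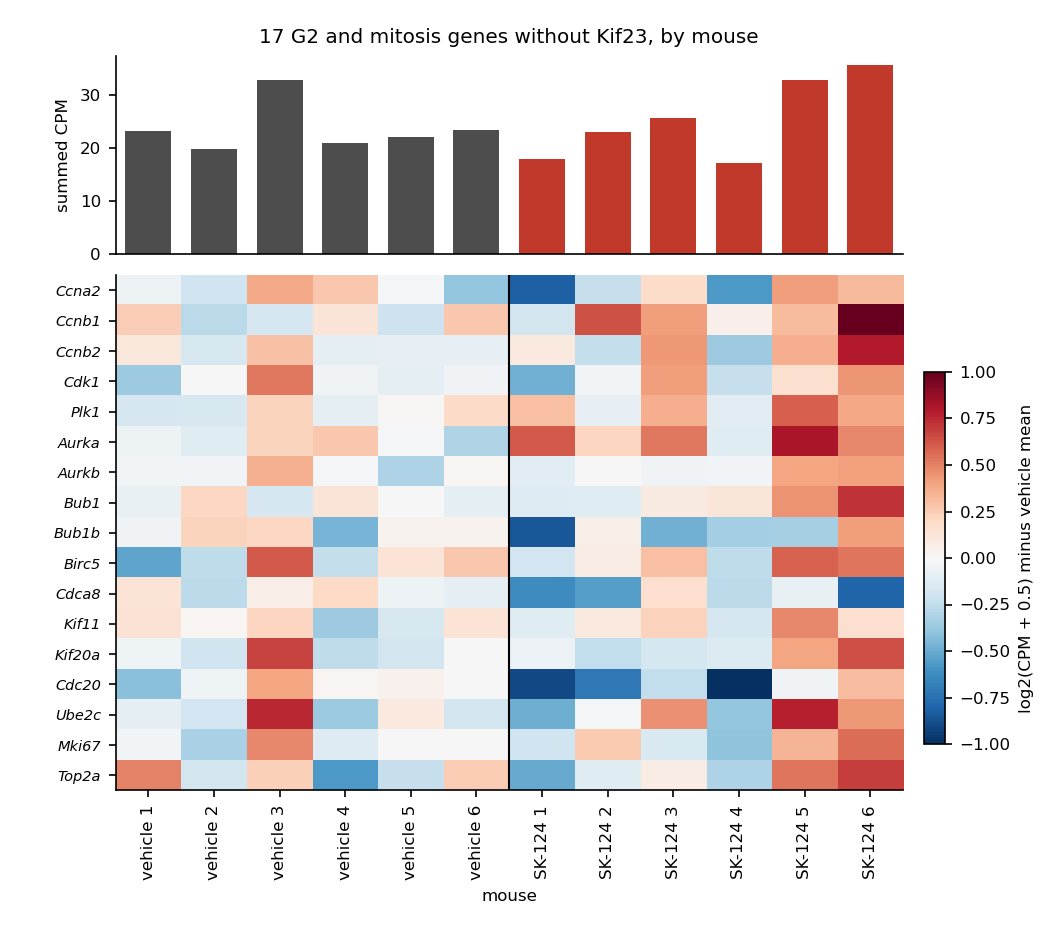
Summed CPM (bars) of the 17 G2 and mitosis genes other than *Kif23* and, below, each gene's log2(CPM + 0.5) minus its vehicle mean, by mouse. Vehicle-treated mouse 3 and SK-124–treated mice 5 and 6 are mostly red, with sums of 32.9, 33.0 and 35.7 CPM, and SK-124–treated mice 1 and 4 mostly blue, with 18.0 and 17.2 CPM.

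Markers of other cells were set beside these sums. Vehicle-treated mouse 3 also had the highest sum of the 6 globin and red-cell precursor genes, 1257 CPM where its group ranged from 457 CPM, but vehicle-treated mouse 4 had 1234 CPM with a mitosis sum of 21.02 CPM. None of the 5 red-cell genes tested was called. Vehicle-treated mouse 3 was also the highest of its group for the stromal and smooth muscle sum, at 140.6 CPM with a group median of 100.3 CPM. That mouse was the lowest for the loop, distal tubule and collecting duct sum, at 2899 CPM with a group median of 3716 CPM. In the SK-124 group the stromal sum was highest in mouse 6, at 118.9 CPM, but mouse 5 had 86.7 CPM, with a group median of 87.3 CPM. The 7 macrophage and neutrophil markers summed to 56.5 to 74.5 CPM with vehicle, highest in mouse 3, and to 63.8 to 78.3 CPM with SK-124, highest in mouse 6. Of them *S100a8* and *S100a9*, the neutrophil markers, rose (log2 fold changes 3.10 and 3.16, FDR 1.08e-04 and 1.87e-05). Their sum was 0.0987 to 1.04 CPM with vehicle and 1.503 to 4.653 CPM with SK-124. *Cd68*, a macrophage lysosome gene, fell (log2 fold change -0.60, FDR 0.00213). The other macrophage markers were not called and had both signs: *Adgre1* -0.62 (FDR 0.0778), *Csf1r* 0.18 (FDR 0.0578), *C1qb* 0.16 (FDR 0.422) and *C1qa* 0.09 (FDR 0.725). The 7 B and T cell markers summed to 2.42 to 3.01 CPM with vehicle and to 0.784 to 1.39 CPM with SK-124, and the 1 of them with enough counts, *Cd79a* of the B cell receptor, was called lower. The part of these cells in the levels of the proliferation genes was not tested.

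Among the kidney's own cells, 1 of 7 proximal tubule markers was called (higher), 2 of 6 of the loop, distal tubule and collecting duct (1 in each direction), and 1 of 4 of the podocyte (higher). Of the endothelial markers 2 of 5 were called, both lower, and of the stromal and smooth muscle markers 2 of 5, 1 in each direction. None of 5 urothelial markers was called. Of all genes tested 24.4% were called, 10.8% as higher and 13.5% as lower. With so few markers a list, these counts are a description. The proximal tubule sum, 9261 to 10310 CPM with vehicle and 9022 to 10999 CPM with SK-124, overlapped between the groups. These marker changes were not tested as a source of the differences in cell-cycle genes.

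Of the 7 origin licensing genes tested, 2 were lower and none higher, where 13.5% and 10.8% of all genes tested were. *Cdt1*, which brings the MCM helicase to the origin, fell from 3.87 to 4.95 CPM (median 4.57) to 2.48 to 4.09 CPM (median 3.26). SK-124–treated mouse 3 lay within the vehicle range and the other 5 below it, and the log2 fold change was -0.45 (SE 0.13, FDR 0.0142). *Cdt1* (ENSMUSG00000006585.3, chromosome 8, 122568015 to 122573554) shares its place with a read-through gene model on the same strand, *Gm20388*, so reads may have been split between the 2. With SK-124–treated mice 1 to 3 alone the value was -0.33 (FDR 0.147), and with mice 4 to 6 alone it was -0.56 (FDR 0.0196).

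*Mcm6*, a helicase subunit on chromosome 1 (128331590 to 128359664), had 13.33, 12.69, 11.75, 12.25, 10.72 and 12.04 CPM in vehicle-treated mice 1 to 6 and 7.53, 9.53, 9.92, 9.95, 9.97 and 12.5 CPM in SK-124–treated mice 1 to 6. In the SK-124 group 5 mice lay below all vehicle-treated mice, and mouse 6 lay within their range. *Mcm6* had a log2 fold change of -0.29 (SE 0.09, FDR 0.0318). The call was close to the threshold: without any one of vehicle-treated mice 1, 2, 4 or 6 or SK-124–treated mice 1 to 5 the FDR was 0.0501 to 0.0716. With SK-124–treated mice 1 to 3 alone the value was -0.43 (FDR 0.0113), and with mice 4 to 6 alone it was -0.16 (FDR 0.292).

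The other helicase subunits were not called and did not share a direction. *Mcm2* had 7.25 to 9.58 CPM (median 8.95) with vehicle and 6.68 to 8.91 CPM (median 7.398) with SK-124, a log2 fold change of -0.20 (SE 0.09, FDR 0.120), and passed only on library totals and without vehicle-treated mouse 3, where the FDR was 0.0391. *Mcm3* stood at -0.34 (SE 0.15, FDR 0.121), *Mcm5* at -0.10 (SE 0.17, FDR 0.717), *Mcm4* at 0.04 (SE 0.11, FDR 0.836) and *Mcm7* at 0.14 (SE 0.07, FDR 0.179). The subunits assemble into 1 ring, and in these mice their RNAs had log2 fold changes of -0.34 to 0.14. Differences between the subunits were not tested. *Cdc6*, with 2 to 10 counts per mouse, did not pass the filter (log2 fold change -0.19 and FDR 0.812 without it).

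*Pcna* went the other way. The clamp gene (ENSMUSG00000027342.14, chromosome 2, 132249162 to 132253314) had 16.59, 15.91, 16.65, 17.04, 17.22 and 16.44 CPM in vehicle-treated mice 1 to 6 and 18.7, 18.8, 20.1, 21.2, 20.8 and 19.9 CPM in SK-124–treated mice 1 to 6. The groups did not overlap, and the log2 fold change was 0.26 (SE 0.05, FDR 0.00146), a 1.20-fold rise. This small rise depended on the scale: on library totals without TMM, where the median of all genes moved to -0.12, it was 0.15 (FDR 0.186), and on log2(TPM + 1) it was 0.12 (FDR 0.431), with TPM of 10.9 to 12.9 with vehicle and 10.5 to 15.0 with SK-124. With SK-124–treated mice 1 to 3 alone it was 0.21 (FDR 0.0506), and with mice 4 to 6 alone 0.32 (FDR 0.00378).

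The enzymes that supply nucleotides gave no call. The ribonucleotide reductase subunits *Rrm1* and *Rrm2* had log2 fold changes of -0.17 (SE 0.11, FDR 0.305) and 0.24 (SE 0.18, FDR 0.381). SK-124–treated mouse 5 was the highest for both, at 9.87 and 4.51 CPM, and without it *Rrm1* was at -0.29 (FDR 0.0238). With SK-124–treated mice 1 to 3 alone *Rrm1* was at -0.36 (FDR 0.0372), and with mice 4 to 6 alone at -0.01 (FDR 0.967). *Tyms* was at 0.00 (SE 0.10, FDR 0.980) and thymidine kinase *Tk1* at -0.09 (SE 0.20, FDR 0.790). Summed over the 13 replication and DNA synthesis members, the level was 80.7 to 84.1 CPM in vehicle-treated mice and 74.9 to 89.5 CPM in SK-124–treated mice, so the SK-124 group reached beyond the vehicle range on both sides.

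The clearest fall was in *Ccnd1*, cyclin D1, the cyclin whose level follows growth-factor signals in early G1. *Ccnd1* (ENSMUSG00000070348.5) lies on chromosome 7, from 144929931 to 144939925 on the minus strand. It had 101, 112, 89.8, 111, 127 and 99.6 CPM in vehicle-treated mice 1 to 6 and 55.54, 59.44, 51.32, 63.96, 46.54 and 57.42 CPM in SK-124–treated mice 1 to 6. All SK-124–treated mice lay below all vehicle-treated mice. The difference was -0.94 on the log2 scale (SE 0.08, FDR 3.28e-07), 1.92 times lower with SK-124, and 226 of the genes tested fell further. The call held under all alternatives that were run, with log2 values of -1.07 to -0.88. *LTO1*, whose gene overlaps the 3′ side of *Ccnd1* on the opposite strand, had 7.27 and 6.66 CPM in the 2 groups (log2 fold change -0.13, SE 0.11, FDR 0.442).

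The other G1 cyclins did not follow cyclin D1 past the threshold. *Ccnd2* (cyclin D2) had 5.65 to 8.91 CPM (median 7.76) with vehicle and 4.01 to 7.47 CPM (median 6.18) with SK-124, with overlap and a log2 fold change of -0.31 (SE 0.14, FDR 0.124). It was called lower on library totals and on both TPM scales, at FDR 0.0247 to 0.0409. *Ccnd3* had 60.0 to 73.5 CPM (median 64.7) with vehicle and 60.0 to 67.3 CPM (median 63.2) with SK-124, a log2 fold change of -0.04 (SE 0.05, FDR 0.671) whose 95% interval ran from -0.16 to 0.08. *Ccne1* (cyclin E1) had 0.102 to 0.427 CPM (median 0.200) and 0.149 to 0.351 CPM (median 0.228) from 2 to 9 counts per mouse and was not tested (log2 fold change -0.13 and FDR 0.878 without the filter). *Ccne2* and *Cdk2*, the E-type partner and its kinase, stood at -0.08 (SE 0.20, FDR 0.829) and 0.02 (SE 0.09, FDR 0.920).

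Around these members, 138 further cell-cycle genes were read from lists by role, of which 125 passed the filter. There 12 were higher and 15 lower, 27 of 125 or 21.6%, against the 24.4% of all genes tested, and the median log2 fold change was -0.06. On both TPM scales 6 were higher, and on library totals 29 were lower. The counts by role that follow stand beside the same shares of all genes tested, 10.8% higher and 13.5% lower, and with few genes a list they are a description. The shares were not matched for expression level, and genes with few counts are called less readily. The lists were chosen with earlier results of these data known, so a high share in a list is not independent of these data.

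Of the 6 inhibitors of cyclin-dependent kinases tested, 3 rose, where 10.8% of all genes tested did, and none fell. *Cdkn1a*, which encodes p21, had 9.48, 9.91, 10.2, 10.4, 7.64 and 10.3 CPM in vehicle-treated mice 1 to 6 and 85.6, 81.3, 120, 101, 112 and 126 CPM in SK-124–treated mice 1 to 6. Its fold change was 10.8 (log2 3.43, SE 0.12, FDR 1.94e-12) with no overlap, larger than that of any member. *Cdkn2b*, which encodes p15, an inhibitor of Cdk4 and Cdk6, went from 0.562 to 1.23 CPM (median 0.894) to 1.99 to 4.85 CPM (median 2.92), with a log2 fold change of 1.78 (SE 0.23, FDR 1.65e-05). *Cdkn1b*, which encodes p27, rose by 0.32 (SE 0.06, FDR 0.00115) on the log2 scale from a median of 26.6 to 34.0 CPM, and was not called on the TPM scales. *Cdkn1c* (p57) had -0.15 (SE 0.08, FDR 0.203), and *Cdkn2a* had no count in any mouse.

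Of 16 pocket proteins, DREAM subunits and E2F factors tested, 5 were lower (31.2%, against 13.5% of all genes tested) and 1 higher. The activators *E2f2* and *E2f3* fell by 0.63 (SE 0.12, FDR 0.00110) and 0.64 (SE 0.13, FDR 0.00129) on the log2 scale, and *Rbl1*, the pocket protein p107, by 0.53 (SE 0.11, FDR 0.00151). *Lin52*, a subunit shared by DREAM and its activating counterpart, rose by 0.29 (SE 0.09, FDR 0.0199), but its value was below 0, at -0.05, on both TPM scales. *Lin52* was at 0.37 (FDR 0.0259) with SK-124–treated mice 1 to 3 alone and at 0.22 (FDR 0.194) with mice 4 to 6 alone. Of the 12 kinases, kinase activators and brakes tested, *Wee1*, which holds Cdk1 inactive, rose by 0.94 (SE 0.12, FDR 2.21e-05), *Ccng2*, an unconventional cyclin linked to arrest, rose by 0.67 (SE 0.08, FDR 9.02e-06), and *Cdc25b*, a phosphatase that activates Cdk1, fell by 0.68 (SE 0.10, FDR 1.25e-04). For these 3 the groups did not overlap.

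The Myc network gave 5 calls among 8 genes tested, 62.5% against 24.4% of all genes tested. *Mycl* fell by 1.15 (SE 0.21, FDR 5.48e-04) and *Mycn* by 0.49 (SE 0.16, FDR 0.0347) on the log2 scale, while *Max*, the shared partner, rose by 0.34 (SE 0.06, FDR 5.97e-04) and the antagonists *Mxd4* and *Mxi1* by 0.20 (SE 0.06, FDR 0.0145) and 0.17 (SE 0.06, FDR 0.0347). *Mxi1* lost its call under 10 of the 24 alternatives, among them library totals, both TPM scales, and SK-124–treated mice 1 to 3 and 4 to 6 alone (0.17 in both, FDR 0.103 and 0.132). *Mxd4* was at 0.17 (FDR 0.0878) with SK-124–treated mice 1 to 3 alone and at 0.23 (FDR 0.0321) with mice 4 to 6 alone. The value of *Mycn* was not followed through the alternatives. *Myc* itself had 5.97 to 10.2 CPM (median 6.42) with vehicle and 6.54 to 8.12 CPM (median 7.48) with SK-124 (log2 fold change 0.09, SE 0.12, FDR 0.636). Among the 17 genes of the ubiquitin ligases that destroy cyclins, 3 were lower and 1 higher, 23.5% called in all against 24.4%. *Cks2*, a small Cdk-binding subunit, fell by 1.02 (SE 0.11, FDR 2.68e-06), *Fzr1*, the G1 activator of the anaphase-promoting complex, by 0.28 (SE 0.06, FDR 0.00245), and *Skp2*, which marks p27 for destruction, by 0.46 (SE 0.15, FDR 0.0274), whereas *Anapc7*, a subunit of the complex, rose by 0.25 (SE 0.07, FDR 0.0119). The *Skp2* call was lost, at FDR 0.0525 to 0.0642, without any one of vehicle-treated mice 2 or 3 or SK-124–treated mice 1, 2 or 3. *Skp2* was at -0.70 (FDR 0.0137) with SK-124–treated mice 1 to 3 alone and at -0.26 (FDR 0.287) with mice 4 to 6 alone. *Anapc7* was at 0.30 (FDR 0.0318) with mice 1 to 3 alone and at 0.21 (FDR 0.0987) with mice 4 to 6 alone.

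The wider replication list held 39 tested genes, with 4 lower and 1 higher, 12.8% called against 24.4% of all genes tested. *Pold1*, the catalytic subunit of DNA polymerase delta, fell by 0.77 (SE 0.12, FDR 1.50e-04), *Chaf1a*, of the chromatin assembly factor, by 0.51 (SE 0.12, FDR 0.00607), and *Gins3*, of the helicase, by 0.87 (SE 0.24, FDR 0.0136), each with no overlap between groups. In the fit with SK-124–treated mice 1 to 3 alone *Gins3* was at -1.18 (FDR 0.0241) and *Chaf1a* at -0.52 (FDR 0.05004), and with mice 4 to 6 alone *Gins3* was at -0.63 (FDR 0.175) and *Chaf1a* at -0.49 (FDR 0.0431). *Mcm10*, which helps to activate the helicase, rose by 0.53 (SE 0.12, FDR 0.00265). Of the 39, 31 had a log2 fold change below 0, at a median of -0.11.

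In the wider mitosis list, 27 of 35 genes passed the filter and *Nusap1* alone was called, 1 of 27 against 24.4% of all genes tested. *Nusap1*, which binds and bundles the microtubules around mitotic chromosomes, had 3.46, 2.92, 3.73, 2.82, 2.61 and 2.89 CPM in vehicle-treated mice 1 to 6 and 7.47, 7.66, 9.24, 8.76, 7.97 and 9.83 CPM in SK-124–treated mice 1 to 6. The groups did not overlap, and the fold change was 2.77 (log2 1.47, SE 0.11, FDR 2.25e-08). Its neighbour *Oip5*, which overlaps it on the opposite strand and encodes a centromere protein, rose by 0.80 (SE 0.25, FDR 0.0274), from 0.460 to 0.806 CPM. Since the use of strand in counting was not stated, reads of these 2 genes cannot be told apart where they overlap. The other 26 genes tested in that list were not called, which at low counts does not show that they were unchanged.

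**Figure D5:**
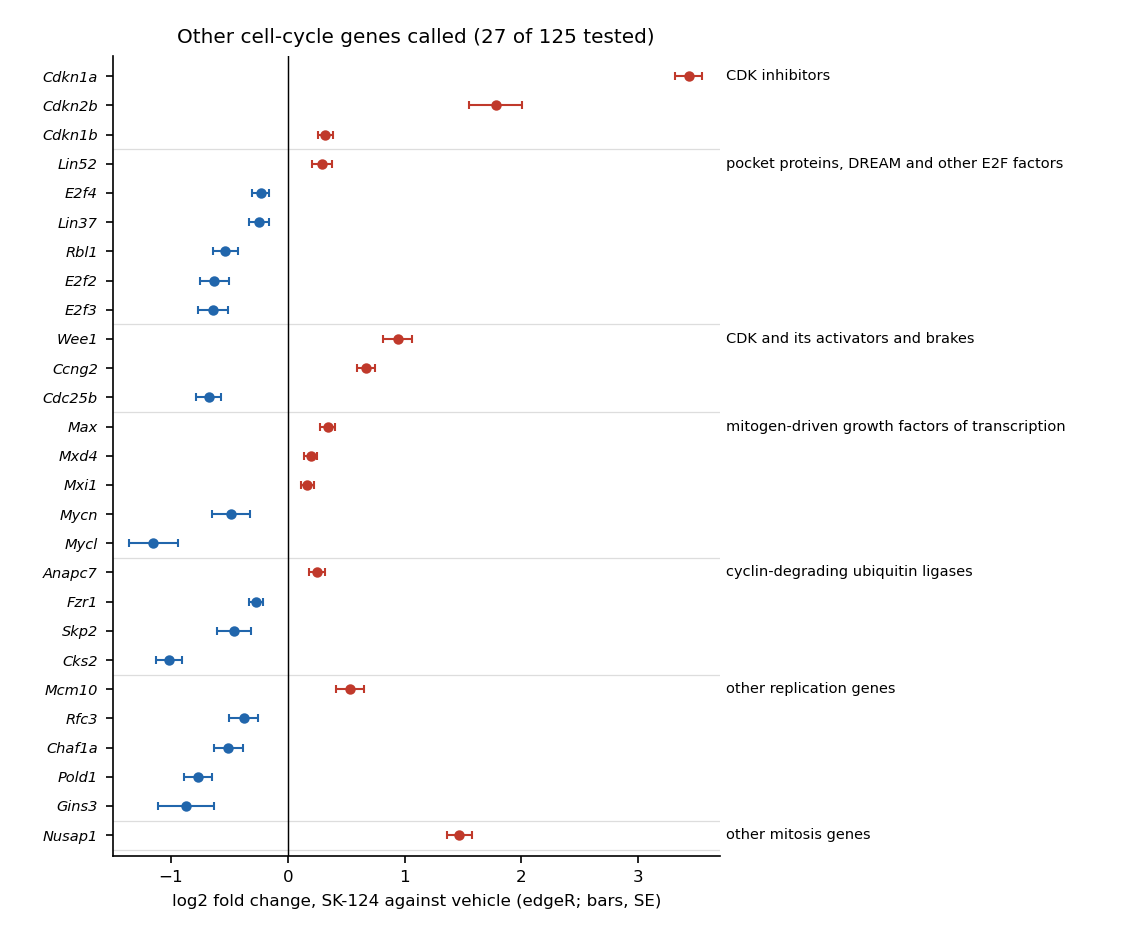
Log2 fold change with its SE for the 27 called genes among the 125 further cell-cycle genes tested, by role, red for higher and blue for lower with SK-124. *Cdkn1a* at 3.43, *Cdkn2b* at 1.78 and *Nusap1* at 1.47 stand furthest to the right, and *Mycl* at -1.15 and *Cks2* at -1.02 furthest to the left.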

How the data were processed

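Whole-kidney RNA of 12 mice was sequenced on a BGISEQ-500 instrument, 1 library per mouse. Per the submitters' processing notes reads were handled with FastQC, STAR 2.7.2b and RSEM 1.3.0 on mm10. The annotation and the use of strand are not given in the sources used here. The deposited RSEM gene tables hold expected counts (estimated reads per gene, not normalized) and TPM (scaled by the authors to effective length and to a fixed total). The effective and weighted transcript lengths in the deposited tables are other values in bases.

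Expected counts were rounded, scaled by TMM, filtered with filterByExpr and tested with edgeR 4.0.16 (quasi-likelihood, R 4.3.3), without covariates, over 14159 genes. FDR is the Benjamini-Hochberg adjusted p, two-sided. SE is the log2 fold change over the square root of F. The 95% intervals used 10 degrees of freedom. The fit was tested on simulated data, with changes larger than those of most members and placed only in genes above a count limit. Small changes and genes with few counts were not covered by it. Groups came from the treatment label. No 2 libraries of a group agreed within counting noise (smallest chi-square per degree of freedom 4.69 over 30 pairs), and p-values measure the spread between mice. Of the identifiers, 54349 matched GENCODE M21 with their version.

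The members and gene lists were chosen with earlier results of these data known. Named in full are called members and *Mki67*, *Top2a*, *Cdk1*, *Ccnb1*, *Pcna*, *Mcm2*, *Ccnd1*, *Ccnd2*, *Ccnd3* and *Ccne1*, and in each further list up to 4 called genes of smallest p, with *Cdkn1a*, *Cdkn1b*, *Cdkn1c* and *Myc*. Neighbours and other genes were named with their values in view. DESeq2 1.42.0, RLE scaling, library totals, 2 other filters, unrounded counts, a replicate block, robust dispersion, limma 3.58.1 on log2 TPM with a pseudocount of 1 or 0.1, fits without each mouse, and SK-124–treated mice 1 to 3 or 4 to 6 alone were the alternatives.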

Additional observations from a re-analysis of the deposited data

Results flagged for a closer look

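Of 130 groups of 6 mice (40 members and 25 further named genes in 2 groups), 9 had 1 mouse that stood apart from the rest of its group, where chance alone flags about 1 in 20 groups, or 6.5 here. Since the same mice recur across genes, these flags are not independent. In vehicle-treated mouse 3 the highest value of the group stood apart for *Mki67* (9.09 CPM), *Kif20a* (3.32 CPM), *Ube2c* (2.45 CPM) and *Cdk1* (1.43 CPM), 4 of the 6 members found and the same mouse that had the highest summed level of the mitosis genes in its group. *Tk1* was high in SK-124–treated mouse 6 (4.56 CPM) and *Rrm1* in SK-124–treated mouse 5 (9.87 CPM). Among the further genes *Cdkn1a* was low (7.64 CPM) and *Myc* high (10.2 CPM) in vehicle-treated mouse 5, and *Cdkn1c* was low (10.997 CPM) in SK-124–treated mouse 6. With vehicle-treated mouse 3 left out, *Mki67* had a log2 fold change of 0.21 (FDR 0.345) and *Cdk1* one of 0.30 (FDR 0.426), neither of them called by edgeR.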

How the results depend on the processing

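Across the 24 alternatives *Kif23* and *Ccnd1* kept their calls, and the other 4 called members each lost theirs under at least 1. *Aurka* was called under 7 of the 23 alternatives that gave it a value, and of the 24 *Mcm6* was called under 13, *Pcna* under 20 and *Cdt1* under 23. Higher members numbered 1 in place of 3 on library totals, on log2(TPM + 1), on log2(TPM + 0.1) and with SK-124–treated mice 1 to 3 alone, and lower members numbered 6 in place of 3 on library totals. Without each mouse in turn there were 2 to 3 higher and 2 to 4 lower members, 11 to 13 higher and 10 to 16 lower genes of the further lists, and a member median of -0.03 to 0.05. Of the 30 uncalled members 6 were called under at least 1 alternative and 17 changed sign under at least 1. Among the further genes, 6 in place of 12 were higher on log2(TPM + 1) and on log2(TPM + 0.1), and 29 in place of 15 were lower on library totals. *Lin52* turned from 0.29 to -0.0465 on log2(TPM + 1) and -0.0515 on log2(TPM + 0.1) (FDR 0.798 and 0.794), where *Cdkn1b*, *E2f2*, *Max*, *Mxd4*, *Anapc7*, *Pold1* and *Chaf1a* also lost their calls, and *Mxi1* lost its call under 10 of the 24. The cause was not tested.

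The number of all genes called was 3453, 44.5% of them higher. Library totals gave 3835 with 20.3% higher and moved the median over all genes to -0.12 on the log2 scale, and the TPM scales gave 2630 and 2616 with 19.01% and 19.04% higher and medians of -0.11 and -0.14. The member medians there were -0.09, -0.06 and -0.16, or 0.03, 0.04 and -0.01 relative to those of all genes. With SK-124–treated mice 1 to 3 alone 2298 genes were called, and without each mouse in turn 2960 to 3942, the most without vehicle-treated mouse 3.

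With the replicate number as a block there were 2 higher and 3 lower members, 12 higher and 12 lower further genes, a member median of 0.01 and 3466 genes in all, and *Aurka* and *Skp2* lost their calls. Same-numbered mice of the 2 groups correlated between -0.13 and 0.22 and are different animals, so the numbers do not pair them. Depth limits the low members most: 22 of 40 had fewer than 30 counts in a mouse.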
